A study of Mus musculus with 13 samples.

Results

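mTOR is a protein kinase that works in 2 complexes, and the 10 genes described here encode its core subunits and the small GTPase switch that controls it. They were chosen by name, with earlier results of these data known: Mtor, Mlst8 and Deptor (subunits of both complexes), Rptor and Akt1s1 (mTORC1), Rictor and Mapkap1 (mTORC2), and Rheb, Tsc1 and Tsc2 upstream of mTORC1. All 10 were found, each in 1 row, among the 40787 genes of the expression table, and all 10 passed the filter on low counts in every comparison. RNA sequencing was done on 13 sciatic nerve samples of C57BL/6 mice at 5 days post-crush (dpc), taken distal to the crush or from the contralateral side, with the epineurium removed and 1 library per nerve. Controls carried floxed Rptor alleles on both chromosomes without Cre and gave 3 injured and 3 contralateral nerves. RaptorKO mice carried the same alleles plus a tamoxifen-inducible Cre (CreERT2) and gave 3 injured and 4 contralateral nerves. Both genotypes received tamoxifen at about 2 months of age, and 1 sciatic nerve was crushed 2 months later. The contralateral nerve is therefore an uncrushed nerve of an operated, tamoxifen-treated mouse, and the Cre acts in Schwann cells (SCs), so that Rptor can persist in the other cells of the nerve.

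As background, mTORC1 contains Raptor, the scaffold protein encoded by Rptor that recruits substrates, and it raises protein and lipid synthesis and restrains autophagy when growth factors and nutrients are sufficient. mTORC2 contains Rictor and mSin1 (Mapkap1) in place of Raptor and phosphorylates Akt, SGK and PKC kinases. The TSC complex switches off Rheb, the GTPase that activates mTORC1 at the lysosome, and amino acids act through a separate branch of Rag GTPases. In SCs the pathway is best known for its part in growth and myelination. mRNA levels of these genes do not report kinase activity, which depends on phosphorylation and localization.

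Library totals ranged from 8200458 to 13581775 counts, and each of the 10 genes held between 140 and 2557 counts in every library. Values are given as counts per 1000000 (CPM) after TMM scaling in edgeR, and are listed by replicate number unless stated otherwise. Genes were tested with the quasi-likelihood (QL) test of edgeR, p-values were adjusted by the Benjamini-Hochberg method across every gene of a comparison, and a call required an adjusted p under 0.05 and a fold change over 1.2. Many log2 fold changes of the 10 genes are given with their standard error (SE) or 95% interval, and those of other genes are given without. The crush was made on 1 side, and the labels number crushed and contralateral nerves alike within a genotype without saying that a number marks 1 mouse. Libraries were tested as independent samples, which ignores the pairing if equal numbers do mark 1 mouse. Control replicate 3 stood apart in sex-linked genes. Its contralateral and injured libraries held 15017 and 14462 counts of Xist and 10 and 20 counts of 4 Y-linked genes, whereas the other libraries held 4 to 17 and 1456 to 2338. None of the 9 listed SC and myelin markers was at 0 in all libraries of a group. These markers summed to between 85174.6 and 94256.8 CPM in control contralateral nerves and between 3573 and 4100.4 CPM in control injured nerves. Fibroblast markers (7 genes) summed higher than the SC markers in both injured groups. Their sums were between 4742.3 and 7207.2 CPM in controls and between 6445.6 and 10735.1 CPM in RaptorKOs. In RNA from all cells of the nerve, fewer cells of a type and less RNA of these genes per cell cannot be told apart. Sums over different genes also do not compare the numbers of cells between types.

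On GRCm38, Rptor spans chr11:119602905-119899576 (plus strand), Mtor chr4:148448611-148557683 (plus), Rictor chr15:6708379-6800401 (plus), Mlst8 chr17:24473551-24479078 (minus) and Akt1s1 chr7:44848991-44855421 (plus). Deptor spans chr15:55112317-55259271 (plus), Rheb chr5:24802823-24842624 (minus), Tsc1 chr2:28641228-28691167 (plus), Tsc2 chr17:24595816-24632630 (minus) and Mapkap1 chr2:34406771-34624950 (plus). All are protein-coding. Exons of 5 of them overlap exons of a gene on the other strand: 997 bases between Mlst8 and Bricd5, 693 between Tsc2 and Pkd1, 303 between Deptor and Gm9920, 89 between Akt1s1 and Tbc1d17, and 84 between Rptor and the antisense gene Rptoros. It is not stated whether reads were counted by strand. Over all libraries Pkd1 held 26586 counts and Tbc1d17 7422, while Bricd5 held 103, Gm9920 33 and Rptoros 3.

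Promoters of 4 genes are shown because these genes moved in the same direction as a partner after injury (Tsc1 and Tsc2 downward, Mlst8 and Akt1s1 upward in RaptorKO nerves). The RefSeq table (GRCm38.p6) held 10 windows for 9 of the 10 genes, each of 300 bases with 250 before the start site and 50 after, and no window for Deptor. Windows were searched on both strands for CACGTG (an E-box), TGANTCA (an AP-1 site), CCAAT and CCGGAAG (the core of ETS sites), and no match overlapped another. Capitals mark matches, all of which here are CCGGAAG or its reverse complement. The Akt1s1 window begins inside the gene span given above, so its start site lies downstream of the gene's 5′ end. The windows lie at chr2:28640983-28641282 (Tsc1, plus strand), chr17:24632578-24632877 (Tsc2, minus), chr17:24479029-24479328 (Mlst8, minus) and chr7:44850122-44850421 (Akt1s1, plus), and read from 5′ to 3′ they are as follows.
Tsc1 promoter: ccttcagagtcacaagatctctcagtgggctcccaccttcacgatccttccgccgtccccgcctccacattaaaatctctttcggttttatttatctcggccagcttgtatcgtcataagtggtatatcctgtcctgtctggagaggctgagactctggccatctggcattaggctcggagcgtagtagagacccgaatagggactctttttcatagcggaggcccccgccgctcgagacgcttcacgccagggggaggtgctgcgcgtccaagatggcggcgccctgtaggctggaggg
Tsc2 promoter: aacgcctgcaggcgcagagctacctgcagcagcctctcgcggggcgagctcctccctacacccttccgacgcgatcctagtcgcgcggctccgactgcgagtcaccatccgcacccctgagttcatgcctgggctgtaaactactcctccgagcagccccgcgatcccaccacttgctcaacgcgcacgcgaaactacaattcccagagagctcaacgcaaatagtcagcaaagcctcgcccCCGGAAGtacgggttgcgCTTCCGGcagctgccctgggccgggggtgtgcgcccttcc
Mlst8 promoter: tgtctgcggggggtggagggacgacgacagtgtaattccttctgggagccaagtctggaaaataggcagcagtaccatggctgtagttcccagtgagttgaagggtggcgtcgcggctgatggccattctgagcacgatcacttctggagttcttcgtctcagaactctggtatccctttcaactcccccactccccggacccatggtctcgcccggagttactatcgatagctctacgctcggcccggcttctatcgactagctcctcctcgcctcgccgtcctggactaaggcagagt
Akt1s1 promoter: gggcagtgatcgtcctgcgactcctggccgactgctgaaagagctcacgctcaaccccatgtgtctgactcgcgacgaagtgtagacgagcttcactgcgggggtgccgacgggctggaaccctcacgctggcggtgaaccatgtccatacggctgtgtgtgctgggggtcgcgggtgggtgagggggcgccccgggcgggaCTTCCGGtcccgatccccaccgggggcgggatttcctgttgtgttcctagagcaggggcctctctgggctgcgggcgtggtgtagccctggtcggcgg

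CCGGAAG occurred at 8 bases before and 11 bases after the start in Tsc2 and at 48 bases before it in Akt1s1, and neither Tsc1 nor Mlst8 held any of the 4 motifs. It was also present in a Mapkap1 window and in the Mtor window, and 8.9% of 32851 mouse promoter windows held it. CCAAT occurred 4 times in Mtor and once in Rictor (37.4% of windows), and CACGTG occurred in Rheb alone (7.2% of windows). No window of the 9 genes held TGANTCA (7.8% of windows). Base composition ranged from 41.7% G and C in Rptor to 78.3% in Rictor, against a median of 52.7% over all windows. These matches describe letters and not bound sites.

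**Figure D1:**
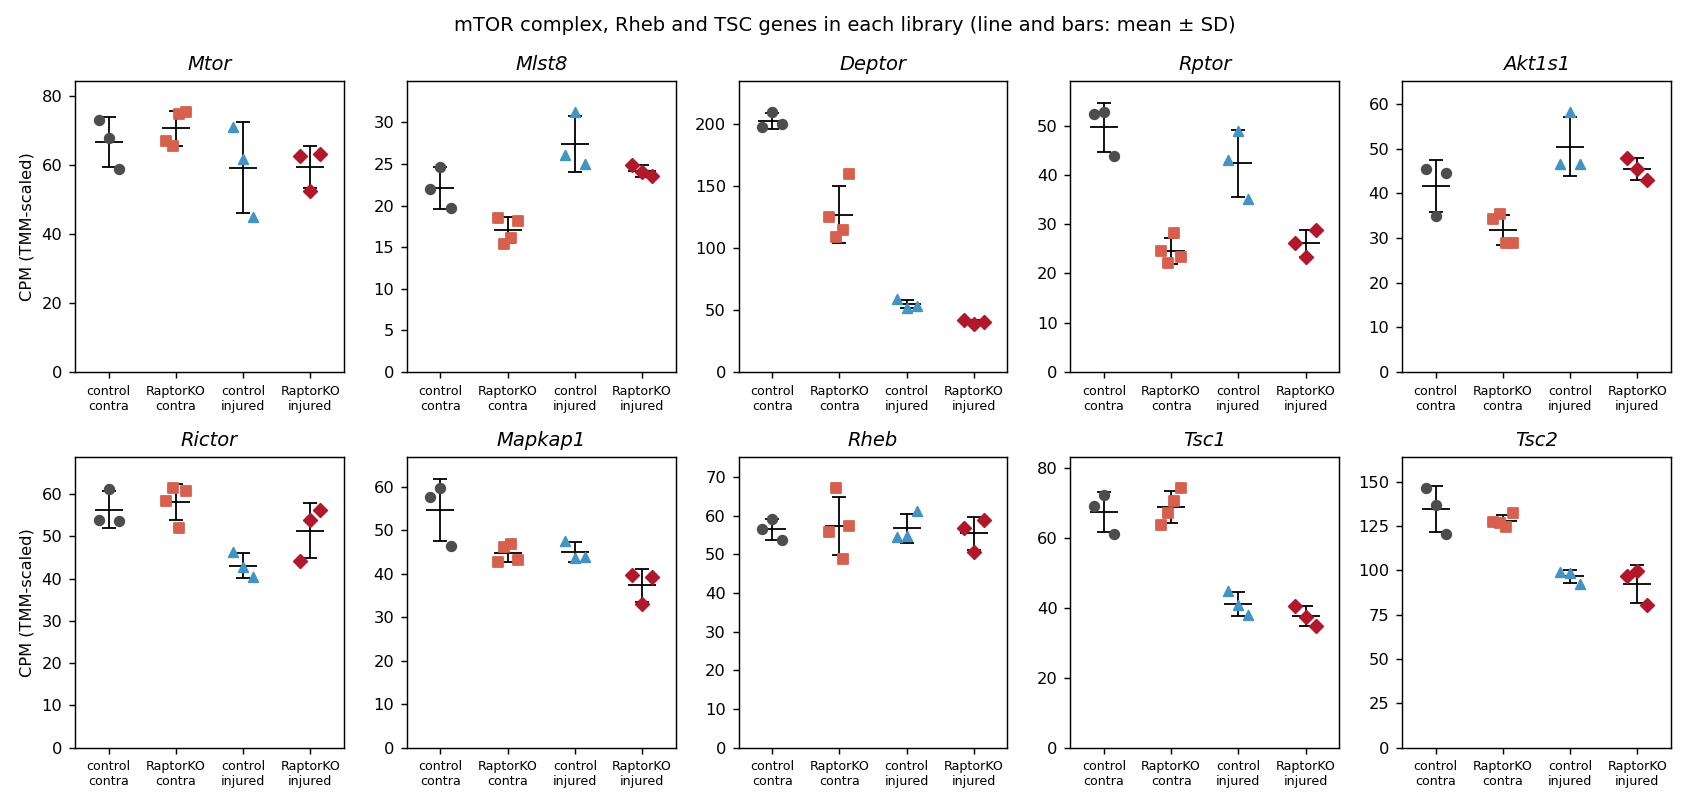
CPM of each gene in each of the 13 libraries (y axis, TMM-scaled CPM from 0; x axis, the 4 groups, with contra for contralateral). Points are libraries, and the line and bars give mean ± SD. RaptorKO libraries lie below control libraries for Rptor and Deptor on both sides, all injured libraries lie below all contralateral libraries for Deptor, Tsc1 and Tsc2, and Rheb shows overlapping groups throughout.

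The targeted gene came first, to check the labels. In contralateral nerves Rptor averaged 49.66 ± 4.985 CPM in controls (SD, n = 3; 43.9 to 52.72) and 24.56 ± 2.583 in RaptorKOs (n = 4), where the libraries, from lowest to highest, measured 22.15, 23.42, 24.54 and 28.15. The highest RaptorKO library thus stayed well below the lowest control library, and Rptor stood at 50.05% of its control level (log2 fold change -1.0, SE 0.12, adjusted p = 5e-04, edgeR QL test). The call was made under all 14 alternative settings that kept the threshold (other scalings, filters and tests, a replicate block, and leaving out each library), with adjusted p from 1.4e-10 to 0.0052. Injured nerves averaged 42.34 ± 6.828 CPM in controls (n = 3; 35.2 to 48.81) and 26.09 ± 2.735 in RaptorKOs (n = 3; 23.29 to 28.75), again without overlap, which left 62.21% of the control level (log2 fold change -0.68, 95% interval -1.01 to -0.36, adjusted p = 0.0167 in the edgeR QL test). This smaller difference passed under 10 of 13 such settings and missed the threshold when RaptorKO injured 1 (adjusted p = 0.0675), control injured 1 (0.0511) or control injured 2 (0.0882) was left out. The genotype difference in injured nerves minus that in contralateral nerves was 0.32 on the log2 scale (95% interval -0.10 to 0.73), so a difference between the sides was not detected. All reads of the gene are summed in the table, including those outside the floxed stretch, so the values do not measure recombination itself, and the share of remaining Rptor that came from cells without Cre was not tested.

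Deptor, an inhibitory subunit that binds mTOR in both complexes, was the only other gene of the 10 called between the genotypes, on both sides. Control contralateral nerves measured 197.1, 209.3 and 199.6 CPM, and RaptorKO contralateral nerves 124.7, 108.6, 114.2 and 159.8. Replicate 4 was the highest of the RaptorKO libraries and still lay below all controls. Deptor fell to 63.52% of control (log2 fold change -0.65, SE 0.12, adjusted p = 0.00795 in the edgeR QL test), a call made under all 14 alternatives and equal to -0.79 without RaptorKO contralateral 4. Injured nerves held far less of it, with 58.7, 51.94 and 53.59 CPM in controls and 41.67, 38.61 and 40.33 in RaptorKOs. The groups did not overlap, and Deptor stood at 74.19% of control (log2 fold change -0.43, 95% interval -0.68 to -0.19, adjusted p = 0.0361 in the edgeR QL test). That call was fragile, since leaving out any 1 of the 6 libraries raised the adjusted p to between 0.0624 and 0.123.

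Across the 10 genes, 2 were lower and 0 were higher in RaptorKO contralateral nerves, against 5.68% lower and 4.49% higher among all 11878 genes of that comparison. The same count, 2 lower and 0 higher, was found in injured nerves, where 4.44% of 12040 genes were lower and 4.09% higher. Since Rptor was the deleted gene, Deptor was the 1 call beyond the target on each side. The median log2 difference of the 10 genes, Rptor included, was -0.17 in contralateral and -0.12 in injured nerves. Over all tested genes it was 0.01 and 0.00. Groups did not overlap for 3 of the 10 genes in contralateral nerves (23.7% of all genes) and for 4 of the 10 in injured nerves (26.2% of all genes). Rptor is among them on both sides.

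Among the remaining subunits shared by both complexes, Mlst8, which stabilizes the kinase domain, measured 22.02, 24.64 and 19.7 CPM in control and 18.54, 15.33, 16.09 and 18.11 in RaptorKO contralateral nerves. The groups did not overlap, but the difference did not pass (log2 fold change -0.36, 95% interval -0.66 to -0.07, adjusted p = 0.114 in the edgeR QL test). In injured nerves it measured 26.05, 31.22 and 24.97 CPM in controls and 24.9, 24.08 and 23.52 in RaptorKOs, a narrow gap between the groups with a log2 difference of -0.17 (95% interval -0.48 to 0.15). Mtor, the kinase itself, averaged 66.53 ± 7.181 CPM in control and 70.52 ± 5.131 in RaptorKO contralateral nerves. Its intervals spanned 0 on both sides, from -0.12 to 0.32 in contralateral and from -0.32 to 0.36 in injured nerves, which in contralateral nerves corresponds to between 0.919 and 1.25 times the control level. Control injured nerves varied most for this gene, from 44.93 to 70.99 CPM.

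Akt1s1, whose product PRAS40 is a substrate and inhibitor of mTORC1, measured 45.5, 34.95 and 44.69 CPM in control and 34.18, 35.41, 29.01 and 28.85 in RaptorKO contralateral nerves. Control replicate 2 fell within the RaptorKO range, and the difference did not pass (log2 fold change -0.37, 95% interval -0.66 to -0.08, adjusted p = 0.107 in the edgeR QL test). In injured nerves its log2 difference was -0.13 (95% interval -0.41 to 0.14). Of the mTORC2 subunits, Rictor averaged 56.28 ± 4.363 CPM in control and 58.16 ± 4.274 in RaptorKO contralateral nerves (95% interval of the log2 fold change -0.15 to 0.28). In injured nerves Rictor measured 46.22, 42.64 and 40.31 CPM in controls and 44.08, 53.92 and 56.13 in RaptorKOs. Here 1 RaptorKO library lay among the controls and the others above them, and the difference of 0.27 on the log2 scale did not pass (95% interval -0.01 to 0.55, adjusted p = 0.252 in the edgeR QL test). Mapkap1 averaged 54.59 ± 7.122 against 44.69 ± 2.131 CPM in contralateral nerves and 44.91 ± 2.255 against 37.28 ± 3.719 in injured nerves, control before RaptorKO. The injured groups did not overlap, since the highest RaptorKO library held 39.71 CPM and the lowest control library 43.47. Its log2 fold changes of -0.27 and -0.25 had adjusted p of 0.147 and 0.256 in the edgeR QL test.

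The upstream switch showed no called difference between genotypes. Rheb averaged 56.51 ± 2.743 CPM in control and 57.35 ± 7.53 in RaptorKO contralateral nerves, and 56.75 ± 3.822 and 55.47 ± 4.211 in injured nerves. For Tsc1, which holds the TSC complex together, the contralateral interval ran from -0.16 to 0.26, and for Tsc2, which carries the activity that switches off Rheb, from -0.24 to 0.12. The matching intervals in injured nerves were -0.39 to 0.16 for Tsc1 and -0.30 to 0.19 for Tsc2. All of these intervals contain 0. In contralateral nerves 5 of the 10 genes (Rptor, Deptor, Mlst8, Akt1s1 and Mapkap1) had an unadjusted p below 0.05 and were lower in RaptorKOs, against 12.8% of all genes, and in injured nerves Rptor and Deptor did, 2 of the 10 against 10.6%. Both counts include Rptor, the deleted gene, so that Deptor alone remains in injured nerves.

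**Figure D2:**
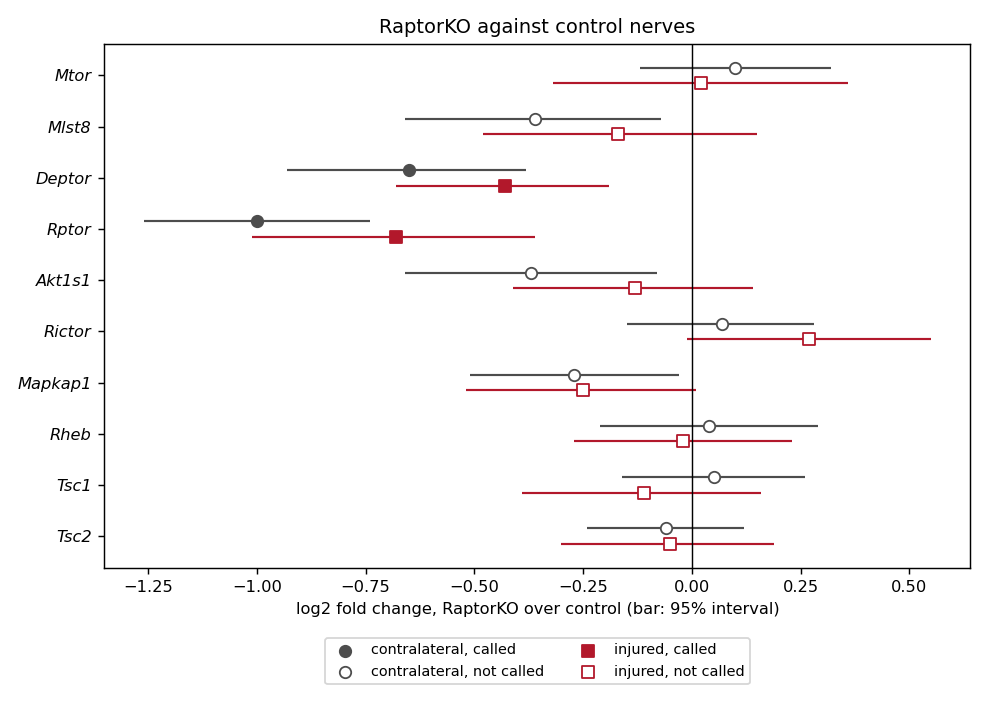
Log2 fold change of RaptorKO against control nerves for each gene (points) with its 95% interval (bars), in contralateral and in injured nerves. Rptor at -1.0 and -0.68 and Deptor at -0.65 and -0.43 are called, and the other genes lie between -0.37 and 0.27 with no call.

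Markers of other cell types moved with the genotype, and their part in these differences was not tested. In contralateral nerves the 9 SC markers summed to between 73029.3 and 89695.5 CPM in RaptorKOs against 85174.6 to 94256.8 in controls (3 of 9 lower, 0 higher). The 10 macrophage markers summed to between 184.8 and 216.5 CPM against 109.1 to 127.9 (5 of 8 tested higher). The 7 fibroblast markers summed to between 7921 and 10758 CPM against 5012 to 5877 (4 of 7 higher). Of the endothelial markers 0 of 8 were called, and of the pericyte and vascular smooth muscle markers 1 of 7 was higher. Of 5 tested repair SC markers (genes of the SC state after injury), 1 was lower and 1 higher. In injured nerves the SC markers summed to between 2615.5 and 3226.5 CPM in RaptorKOs (2 of 9 lower), and markers were higher for 7 of 8 endothelial, 5 of 6 tested pericyte and vascular smooth muscle, 5 of 6 mast cell, 3 of 3 tested erythrocyte and 2 of 6 tested fibroblast genes, whereas 5 of 6 proliferation genes were lower. None of the 10 macrophage markers were called in that comparison, and of 7 tested repair SC markers 1 was lower and 0 were higher. Apart from 1 of the 8 repair SC markers in each contralateral group, no marker of these lists was at 0 in all libraries of a group. Without control replicate 3, the library that stood apart in sex-linked genes, the log2 difference was -1.07 for Rptor and -0.66 for Deptor in contralateral nerves (both called) and -0.80 and -0.45 in injured nerves, where Deptor lost its call (adjusted p = 0.0788 in the edgeR QL test).

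After crush injury the largest difference among these genes was that of Deptor, followed by Tsc1, in both genotypes. In control nerves 5 of the 10 genes fell and 0 rose (3 and 2 with library totals), in a comparison in which 32.9% of 12430 genes were lower and 32.4% higher. In RaptorKO nerves 3 fell and 2 rose, where 28.5% of 12515 genes were lower and 30.5% higher. The median log2 difference of the 10 genes was -0.28 in control and -0.22 in RaptorKO nerves, against 0.00 and 0.03 over all tested genes. Injured and contralateral groups did not overlap for 6 of the 10 genes in controls (70.9% of all genes) and for 7 in RaptorKOs (60.6% of all genes). When libraries were scaled by their totals alone, the median of all genes moved to 0.20 and 0.19, so injury differences are given relative to the TMM scale, and those that depend on it are named.

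Deptor dropped from an average of 202 ± 6.463 CPM in control contralateral to 54.74 ± 3.525 in control injured nerves, or to 26.62% (log2 fold change -1.91, SE 0.08, adjusted p = 1.92e-09 in the edgeR QL test). In RaptorKO nerves it dropped from 126.8 ± 22.97 to 40.2 ± 1.538 CPM, or to 31.63% (log2 fold change -1.66, SE 0.14, adjusted p = 2.89e-06). The lowest contralateral library of either genotype, at 108.6 CPM, exceeded the highest injured library at 58.7. Both falls were called under every alternative run.

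Both TSC genes fell after injury in both genotypes. Tsc1 measured 68.98, 72.28 and 61.05 CPM in control contralateral and 44.76, 40.7 and 37.95 in control injured nerves, a log2 fold change of -0.74 (SE 0.11, adjusted p = 7.25e-05 in the edgeR QL test). RaptorKO nerves went from 63.65, 67.21, 70.47 and 74.27 CPM to 40.6, 37.34 and 34.82, a log2 fold change of -0.88 (SE 0.11, adjusted p = 4.14e-05). No injured library reached the lowest contralateral library in either genotype. Tsc2 measured 146.5, 136.9 and 120.7 CPM in control contralateral and 99.05, 98.72 and 92.52 in control injured nerves (log2 fold change -0.50, SE 0.09, adjusted p = 0.000392). It averaged 127.7 ± 3.315 and 92.34 ± 10.51 CPM in the corresponding RaptorKO groups (log2 fold change -0.47, SE 0.10, adjusted p = 0.00177). These calls also held under every alternative. Rheb, the target of the TSC complex, stayed between 48.93 and 67.21 CPM in all libraries, with log2 differences of -0.02 (95% interval -0.24 to 0.20) in controls and -0.05 (-0.33 to 0.22) in RaptorKOs.

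**Figure D3:**
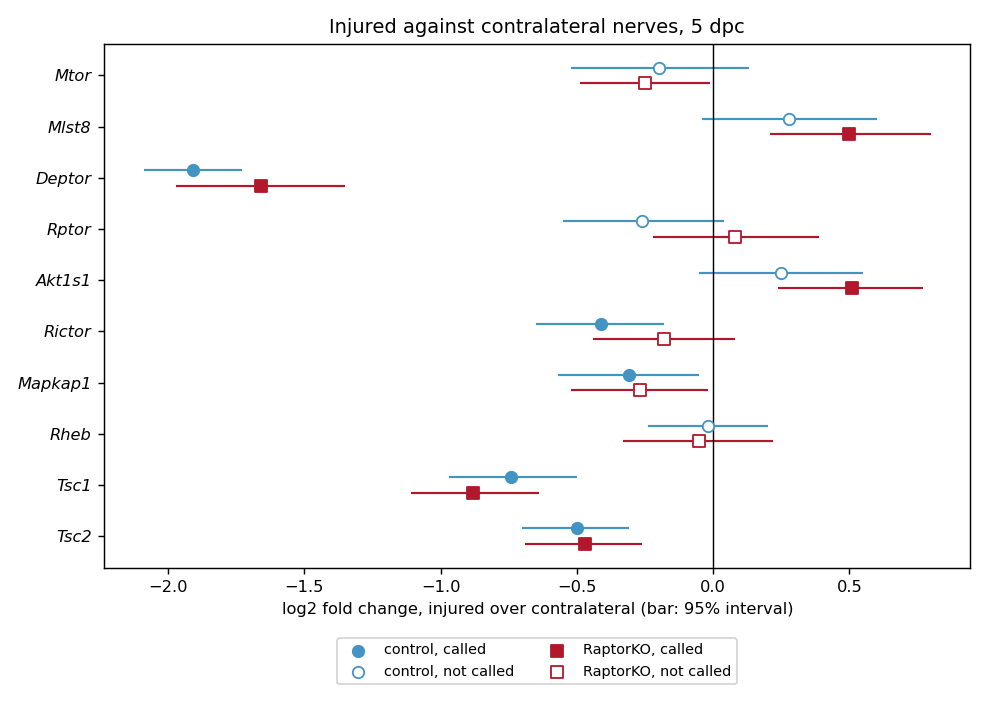
Log2 fold change of injured against contralateral nerves for each gene (points) with its 95% interval (bars), in control and in RaptorKO nerves. Deptor lies lowest at -1.91 and -1.66, Tsc1 and Tsc2 lie between -0.88 and -0.47, and Mlst8 and Akt1s1 lie above 0 in both genotypes but are called in RaptorKO nerves alone on the TMM scale (in controls also with library totals), a contrast that the interaction did not pass.

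Mlst8 and Akt1s1 were the genes that rose. In RaptorKO nerves Mlst8 went from 17.02 ± 1.553 CPM in contralateral to 24.9, 24.08 and 23.52 in injured nerves (log2 fold change 0.50, SE 0.13, adjusted p = 0.00736 in the edgeR QL test). Akt1s1 went from 31.86 ± 3.42 CPM to 48.01, 45.55 and 43.08 (log2 fold change 0.51, SE 0.12, adjusted p = 0.00398), and neither gene had overlapping groups. In controls the corresponding log2 differences were 0.28 (95% interval -0.04 to 0.60) and 0.25 (-0.05 to 0.55), with adjusted p of 0.109 and 0.123. Scaled by library totals both control differences passed, at 0.48 (adjusted p = 0.0116) and 0.45 (adjusted p = 0.0136). Whether the rise differed between genotypes was tested directly and did not pass, with interaction values of 0.20 for Mlst8 (95% interval -0.20 to 0.60) and 0.24 for Akt1s1 (-0.16 to 0.63).

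Both mTORC2 subunits passed in control nerves, and in RaptorKO nerves Mapkap1 passed only with RLE size factors (adjusted p = 0.0461 in the edgeR QL test) or with all libraries in 1 fit (0.0442). Rictor fell from 56.28 ± 4.363 to 43.06 ± 2.978 CPM (log2 fold change -0.41, SE 0.11, adjusted p = 0.00476 in the edgeR QL test) and lost its call with library totals (-0.21, adjusted p = 0.0981). Mapkap1 fell by 0.31 on the log2 scale (SE 0.12, adjusted p = 0.0362), but its groups overlapped, since control contralateral 3 held 46.45 CPM and control injured 1 held 47.51. That call was made under 6 of 13 alternatives and was lost with library totals, without a count filter, with DESeq2, and without control contralateral 1 or 2 or control injured 2 or 3 (adjusted p between 0.0556 and 0.428). In RaptorKO nerves the log2 differences were -0.18 for Rictor (95% interval -0.44 to 0.08) and -0.27 for Mapkap1 (-0.52 to -0.02, adjusted p = 0.0618). Neither interaction passed (0.21 for Rictor and 0.02 for Mapkap1). Mtor and Rptor were not called for injury in either genotype. Mtor differed by -0.20 in controls and -0.25 in RaptorKOs (adjusted p = 0.26 and 0.0656 in the edgeR QL test). Rptor differed by -0.26 and 0.08 (adjusted p = 0.114 and 0.635).

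The interaction, fitted over all 13 libraries, asks whether injury moved a gene differently in the genotypes. None of the 10 genes was called by the edgeR QL test, none had an unadjusted p below 0.05, and DESeq2 called 0. Over all 12851 genes tested, 1.41% were called lower and 1.07% higher, 14.2% had an unadjusted p below 0.05, and DESeq2 called 2.75% lower and 1.91% higher. Values ranged from -0.16 for Tsc1 to 0.32 for Rptor, with the interval of Deptor at -0.12 to 0.58 around 0.23. Equal responses were not shown by intervals of this width.

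Cell composition also moved with injury, and its part in the falls and rises above was not tested. In control nerves 7 of 9 SC markers fell and 0 rose, all 10 macrophage markers rose (from between 109.1 and 127.9 to between 1354 and 1892 CPM in sum), all 7 tested repair SC markers rose (from between 104.5 and 129.6 to between 2286 and 2669 CPM in sum, with 1 of 8 at 0 in all contralateral libraries), and all 6 proliferation genes rose. In RaptorKO nerves 7 of 9 SC markers fell and 1 rose, and all 10 macrophage markers, all 6 tested repair SC markers and all 6 proliferation genes rose. Endothelial markers fell for 5 of 8 in controls, whereas 2 fell and 3 rose in RaptorKOs.

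To compare genes with each other, CPM was divided by the summed exon length in kilobases. On this scale Deptor stood highest in control contralateral nerves, at 22.76 ± 0.7283 CPM per kb, followed by Tsc2 (14 ± 1.355), Akt1s1 (13.58 ± 1.91) and Mapkap1 (13.45 ± 1.755), which overlapped one another. Rheb, Mtor, Tsc1 and Mlst8 formed a lower tier from 7.319 ± 0.3552 to 4.987 ± 0.5575, each overlapping the next, and Rptor (3.686 ± 0.3701) and Rictor (3.324 ± 0.2577) overlapped at the bottom. In RaptorKO contralateral nerves Deptor (14.29 ± 2.588) overlapped Tsc2 (13.27 ± 0.3446), and Rptor (1.823 ± 0.1918) lay below Rictor (3.436 ± 0.2525) with no overlap. After injury Akt1s1 stood highest in both genotypes (16.44 ± 2.171 in control and 14.83 ± 0.8016 CPM per kb in RaptorKO nerves). Deptor then ranked 6 in controls (6.169 ± 0.3972), where it overlapped Mlst8 and Mtor, and 7 in RaptorKOs (4.53 ± 0.1733).

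Ratios of these per-length mRNA levels were taken between pairs of genes within each library. They do not measure proteins or complexes, and a value near 1 depends on the exon lengths used. The ratio of Rptor to Rictor was 1.223, 1.081 and 1.027 in control contralateral and 0.529, 0.4529, 0.6792 and 0.484 in RaptorKO contralateral nerves. In injured nerves it was 1.169, 1.439 and 1.097 in controls and 0.748, 0.5428 and 0.6438 in RaptorKOs. On this per-length scale Rptor matched or exceeded Rictor in each control library and was the lower of the pair in each RaptorKO library. The ratio of Deptor to Mtor ranged from 3.075 to 3.867 in control contralateral, 1.742 to 2.421 in RaptorKO contralateral, 0.9419 to 1.359 in control injured and 0.7279 to 0.8389 in RaptorKO injured nerves, so the 4 groups did not overlap. That of Tsc1 to Tsc2 ranged from 0.3827 to 0.4599 over the contralateral libraries and from 0.3047 to 0.3673 over the injured ones. These ratios are descriptions and were not tested.

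**Figure D4:**
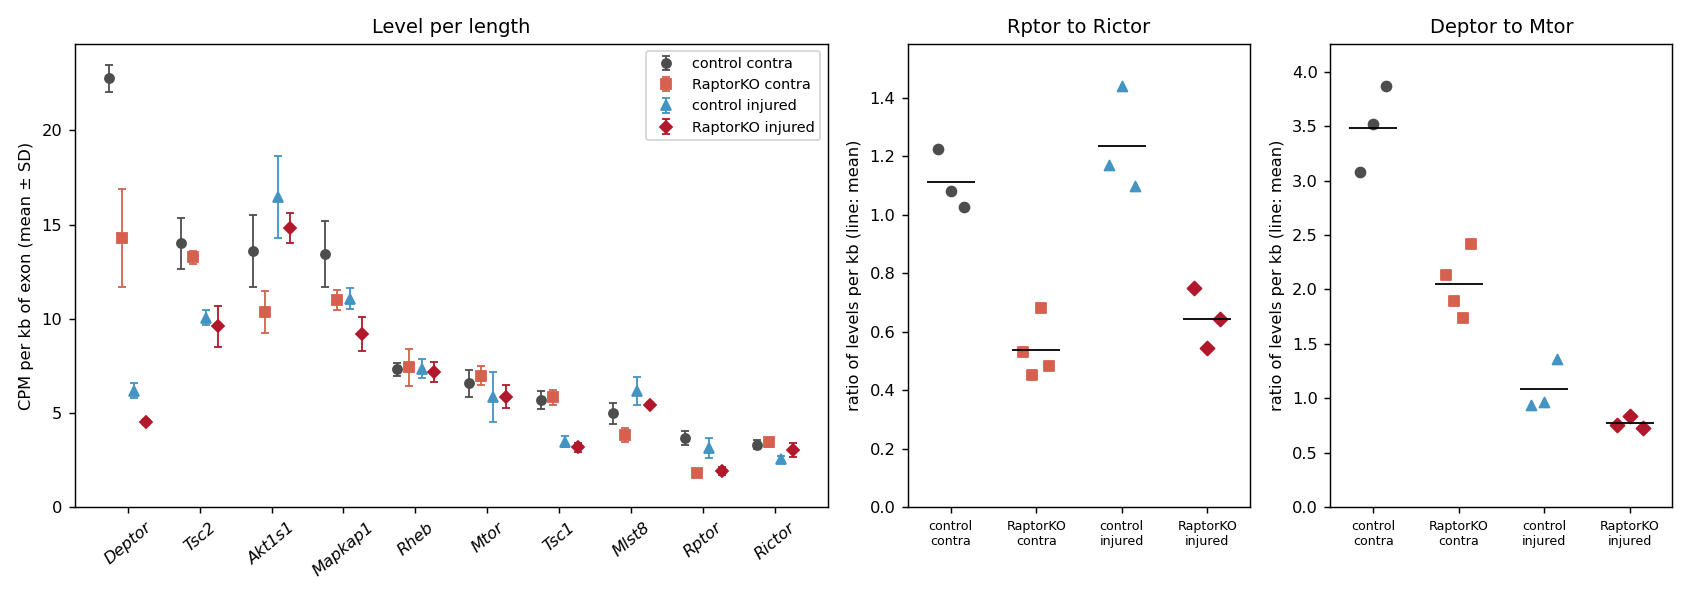
Left, mean level of each gene in CPM per kb of exon in the 4 groups, with bars for the SD. Middle and right, the per-length ratios of Rptor to Rictor and of Deptor to Mtor in each library (points) with group means (lines). All control libraries have Rptor to Rictor ratios above 1, the RaptorKO libraries reach 0.748 at most, and Deptor to Mtor steps down from 3.075 or more in control contralateral to 0.8389 or less in RaptorKO injured nerves.

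The wider pathway was followed through 74 further genes in 6 lists, of which 68 to 70 were tested per comparison. In contralateral nerves 6 of 70 were lower and 2 higher in RaptorKOs, beside 5.68% and 4.49% of all genes, and in injured nerves 3 of 68 were lower and 1 higher, beside 4.44% and 4.09%. The lower genes of contralateral nerves were Prkca (protein kinase C alpha, an mTORC2 target, log2 fold change -1.0, from 872.5 ± 73.63 to 430.7 ± 68.13 CPM), Sgk3 (-0.76), the sestrins Sesn3 (-0.95) and Sesn1 (-0.65), Castor2 (-0.78), which belongs to the arginine sensor family, and Pik3r1 (-0.49), a regulatory subunit of PI3K. Each was called under all 14 alternatives. The higher genes were Eif4ebp1 (0.61, from 12.99 ± 0.8329 to 19.54 ± 3.763 CPM), the translation repressor that mTORC1 phosphorylates, and Flcn (0.47), an activator of RagC. Eif4ebp1 was called under 7 of 14 alternatives and lost its call with all libraries in 1 fit (adjusted p = 0.0583 in the edgeR QL test) and without any 1 of the control libraries or RaptorKO contralateral 1, 2 or 3 (between 0.0643 and 0.169). Flcn lost it without control contralateral 1 (0.0727) or 2 (0.0846).

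In injured nerves Castor2 (log2 fold change -0.68) and Sesn3 (-0.65) were again lower in RaptorKOs, Pik3r1 was lower (-0.37) and Sgk1, a kinase under mTORC2, was higher (0.49, from 115.1 ± 9.421 to 160 ± 25.57 CPM). Castor2 was called under all 13 alternatives. Sesn3 missed the threshold when RaptorKO injured 1 (adjusted p = 0.0592 in the edgeR QL test) or control injured 2 (0.0515) was left out. Pik3r1 (adjusted p = 0.0456) was called under 5 alternatives and Sgk1 (0.037) under 7. Leaving out any library but RaptorKO injured 3 ended the call of Pik3r1, and leaving out any but RaptorKO injured 2 ended that of Sgk1. The Rag and Ragulator list also holds Flcn, Fnip1, Fnip2 and Slc38a9. By list, 0 of 12 tested substrates of mTORC1 and 0 of 12 tested genes of the Rag and Ragulator list were called in injured nerves. In the latter list all 12 values lay below 0 (median -0.21) with 1 at an unadjusted p below 0.05. DESeq2 also called 0 in each of these lists.

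After injury 21 of 70 pathway genes were lower and 19 higher in control nerves, where 32.9% and 32.4% of all genes were. In RaptorKO nerves 21 of 69 were lower (13 with library totals) and 16 higher, beside 28.5% and 30.5% of all genes. Rag GTPases and Ragulator bring mTORC1 to the lysosome. Genes of their list were mostly higher in controls (8 of 13 higher and 1 lower, median 0.51), including Fnip2 (1.2, from 37.29 ± 2.802 to 87.45 ± 1.971 CPM). In RaptorKOs 5 of 13 were higher and 2 lower (median 0.23), including Fnip2 (1.04) and Lamtor4 (0.87). Rragb fell in both genotypes (-2.06 and -1.95). Kinases under mTORC2 went mostly the other way in controls (4 of 6 lower and 1 higher), led by Prkca (-3.02 in control and -2.38 in RaptorKO nerves). Among the nutrient sensors Sesn1 fell (-2.55 and -2.08), from 311.4 ± 28.15 to 54.02 ± 1.672 CPM in controls, while Sesn2 rose in controls (1.79, from 4.65 ± 1.114 to 16.49 ± 3.208 CPM). In RaptorKOs Sesn2 averaged 5.237 ± 3.621 CPM in contralateral and 10.43 ± 2.49 CPM in injured nerves. Inputs from PI3K and AMPK were divided, with Pik3r1 (-2.09 and -1.95) and Prkab2 (-2.24 and -1.85) lower and Prkaa1 (1.55 and 1.37) and Pik3r3 (1.36 and 1.41) higher. Of the substrates, Eif4ebp1 rose in both genotypes (1.77 and 1.36), from 12.99 ± 0.8329 to 45.0 ± 11.17 CPM in controls. All the log2 fold changes of single genes given here for injury were called under every alternative. GATOR, KICSTOR and sensor genes counted 6 lower and 2 higher of 17 in controls and 4 and 4 in RaptorKOs, and the other complex and TSC subunits counted 2 lower of 5 and 3 lower of 5, with 0 higher.

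In the interaction 0 of 70 pathway genes were called by the edgeR QL test, 9 had an unadjusted p below 0.05 (14.2% of all genes did), and DESeq2 called 1 lower and 1 higher.

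**Figure D5:**
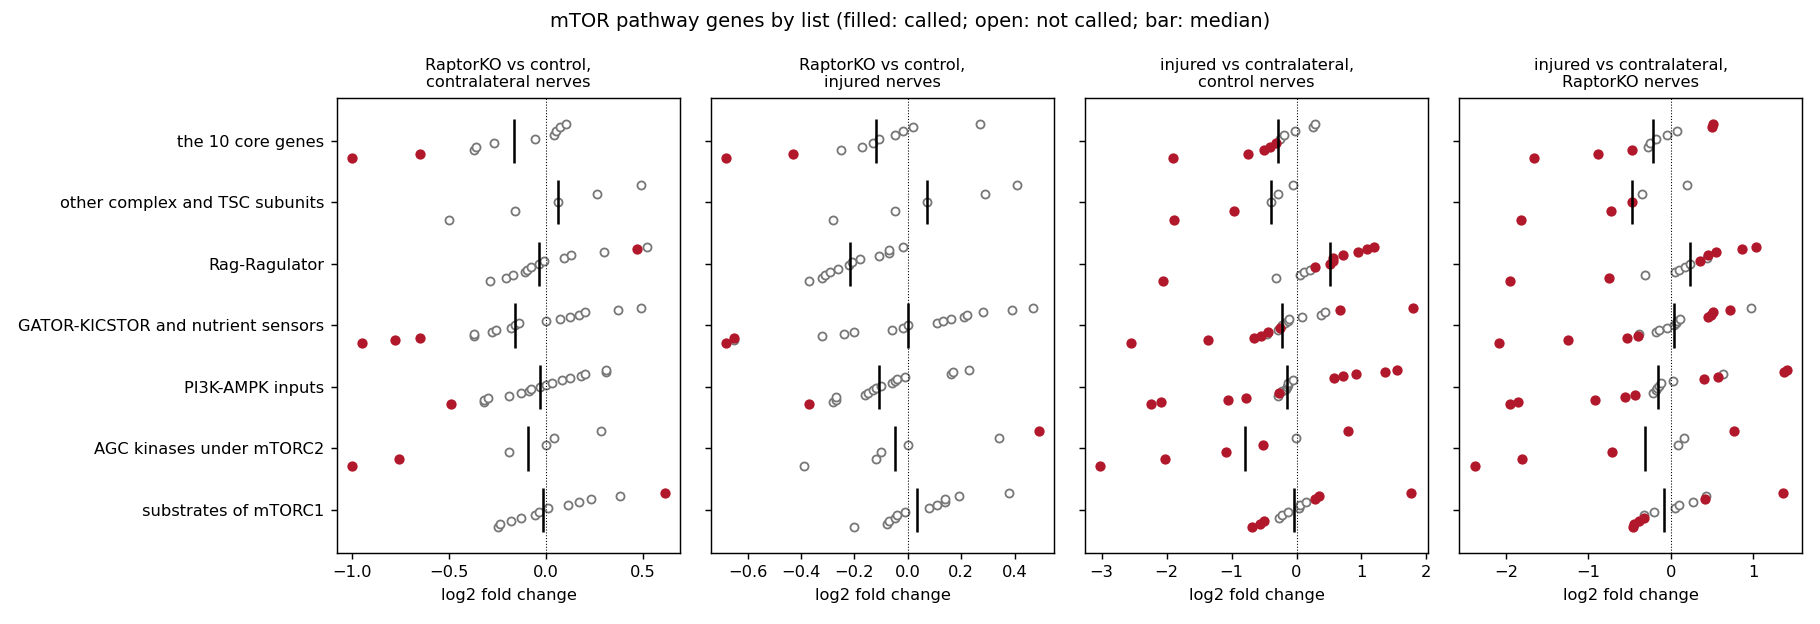
Log2 fold change of every tested gene by list in the 4 comparisons (filled points called, open points not called, bars list medians). The x axes differ in range between panels, and the height of a point within its row only separates the points. Most points of the genotype panels are open, whereas filled points lie on both sides of 0 in the injury panels.

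The genes whose pattern was most like that of Rptor over the 13 libraries, among 12851 genes, were Sash1 (Pearson r = 0.967), Arrdc3 (0.946) and Sesn3 (0.937), computed on log2 CPM. Arrdc3 averaged 81.77 CPM in control contralateral, 41.42 in RaptorKO contralateral, 67.6 in control injured and 46.91 in RaptorKO injured nerves. For Deptor they were Reep5 (0.995), Gmfb (0.993) and Clvs1 (0.992), and Clvs1 averaged 243.7, 144.3, 33.83 and 20.49 CPM in the same order of groups. These correlations describe 13 libraries that share the differences between the 4 groups, and no p is given.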

How the data were processed

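RNA of distal sciatic nerves was sequenced as single-end reads. The authors trimmed the reads with Trimmomatic and quantified genes with RSEM 1.2.22 on GRCm38, and deposited RSEM expected counts, which are not whole for 24.9% to 27.9% of nonzero values since RSEM divides a read that fits several genes among them. These estimated counts were rounded here. Every value column was matched to a sample by its label, and 40550 of 40787 gene IDs were matched to GENCODE M21 for symbols, positions and exon lengths.

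The analysis used edgeR 4.0.16 and DESeq2 1.42.0 (R 4.3.3), and plots were made in Python 3.11.15 (matplotlib 3.10.9). Testing required 50 counts or more in at least 2 of the libraries compared. Libraries were scaled with TMM factors. Groups were compared in pairs with glmQLFit and glmQLFTest (Benjamini-Hochberg adjustment over all tested genes), and the interaction used all 13 libraries. The exact test of the study was an alternative here. The other alternatives were RLE size factors, library totals, no count filter (1 count or more), DESeq2, an adjusted p below 0.01, a replicate block, 1 fit of all libraries, and leaving out each library. The block was the replicate number, which between genotypes joins different mice, and in the interaction it was genotype with number. The analysis was tested on simulated counts with known changes. Group means of CPM use TMM factors over all libraries, and log2 CPM for correlations used a prior count of 2.

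The 10 genes, the 6 pathway lists (further subunits, Rag and Ragulator, GATOR, KICSTOR and sensors, PI3K and AMPK inputs, AGC kinases, substrates) and the marker lists were chosen with earlier results of these data known. An item of the SC marker list is not reported here. Beyond the 10 genes, the called pathway genes with the largest log2 fold changes were named, at most 5 in each direction per comparison, and for likeness of pattern the 3 genes with the highest r to Rptor and to the gene most changed by injury in controls. Pik3r1 in contralateral nerves was named besides, after its value was seen. Promoters came from RefSeq, and no protein sequence was used.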

Additional observations from a re-analysis of the deposited data

How the results depend on the processing

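Of the log2 differences of the 10 genes, 711 kept their direction and call over the alternatives, 25 kept their direction and gained or lost a call, and 34 changed sign, all in genes without a call. In contralateral nerves all-gene counts of 675 lower and 533 higher became 259 and 218 at an adjusted p below 0.01, and with 1 library left out ran from 278 to 820 lower and 246 to 598 higher. In injured nerves 535 lower and 493 higher became 219 and 132 at that threshold, 856 were higher without a count filter, and with 1 library left out they ran from 271 to 515 and from 176 to 484. Of the 10 genes, 0 were lower in injured nerves at an adjusted p below 0.01, and 0 or 1 with 1 library left out. For injury in controls, library totals gave 3 lower and 2 higher of the 10. Interaction counts of 181 lower and 137 higher became 353 and 245 with DESeq2 and 48 and 36 at an adjusted p below 0.01, and ran from 78 to 163 and 54 to 124 with 1 library left out.

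Sign changes were small. With library totals Mtor was 0.01 and Rheb 0.18 for injury in controls, Rheb was 0.10 for injury in RaptorKOs, and Rheb was 0.02 in controls without a count filter. For Tsc2 the interaction was -0.01 with RLE factors, library totals or DESeq2. With 1 library left out, contralateral genotype differences ran from -0.05 to 0.12 (Rheb) and -0.01 to 0.10 (Tsc1), those of injured nerves from -0.15 to 0.16 (Mtor), -0.06 to 0.04 (Rheb) and -0.12 to 0.04 (Tsc2), and Rheb after injury from -0.06 to 0.03 in controls and -0.14 to 0.03 in RaptorKOs. Interactions ran from -0.24 to 0.06 (Mtor), -0.14 to 0.03 (Rheb), -0.05 to 0.09 (Tsc2) and -0.05 to 0.12 (Mapkap1).

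Between the sides of 1 genotype, same-numbered libraries correlated in their deviations from the group means at r from -0.0282 to 0.305. Between the genotypes r ran from -0.0495 to 0.335. Not every pair passed 0.1 and not every library correlated best with its own number. Correlations over so few libraries cannot exclude that equal numbers mark 1 mouse. Both control libraries numbered 3 shared the high Xist and low Y-linked counts that no other library showed. The main tests used no pairing, so nerves of 1 mouse may have been tested as independent. Between genotypes the replicate block joined control and RaptorKO mice that share only a number, a grouping that the labels do not give. With the replicate block, 880 genes were higher in contralateral nerves, 1 of the 10 genes was lower in injured nerves (Deptor lost its call, adjusted p = 0.0663 in the edgeR QL test), and the Mapkap1 interaction was -0.01. For injury the block changed no call of the 10 genes (5 lower in controls, 3 lower and 2 higher in RaptorKOs). The causes of these changes were not tested. With 3 or 4 libraries per group and 140 to 339 counts of Mlst8 per library, modest differences can go undetected.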

Other observations

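Some marker lists not summed above also differed between groups. Mast cell markers summed to between 12.25 and 60.25 CPM in control and 82.35 and 142.1 CPM in RaptorKO contralateral nerves, with 2 of 5 tested genes called higher. Erythrocyte markers summed to between 73.91 and 139.2 CPM in control and 139.6 and 255.9 CPM in RaptorKO contralateral nerves (2 of 4 tested higher), and to between 5.961 and 24.88 CPM and 46.49 and 75.79 CPM in the corresponding injured nerves. Proliferation genes summed to between 1437 and 1569 CPM in control and 866.6 and 945.3 CPM in RaptorKO injured nerves. Adipocyte markers reached 147.4 CPM in 1 RaptorKO contralateral library against a group median of 5.261, and skeletal muscle markers reached at most 26.14 CPM in any library. T cell markers stayed at or below 23.66 CPM and neutrophil markers at or below 48.07 CPM in every library.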
